A study of Homo sapiens with 12 samples.

Results

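The hexokinase genes HKDC1, HK1, HK2 and HK3 were followed in RKO, a human colon carcinoma cell line in long use, after knockout or overexpression of the transcription factor gene PRDM1. The members were taken by symbol, 4 of the 26364 genes in the per-library count files, and 3 of them (HKDC1, HK1 and HK2) were among the 12858 genes that passed the low-count filter, HKDC1 only through the PRDM1α and PRDM1β libraries. HKDC1 was chosen by its rise with PRDM1 overexpression in these same libraries, so its values against or within the overexpression groups are given as a description with no test. HK1 and HK2 entered by family name.

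The data are polyA RNA-seq counts from 6 groups of 2 libraries each. Wild type was the unmodified parent line; KO2 and KO5 were separate PRDM1 knockout derivatives made with CRISPR/Cas9; and the GFP, PRDM1α and PRDM1β groups overexpressed green fluorescent protein, the alpha isoform or the beta isoform. All groups shared the RKO background and were grown in the same serum-supplemented medium. GFP was the control of the overexpression groups and wild type that of the knockouts. The labels do not say whether KO2 or KO5 is a single clone, which promoter drove the overexpressed genes, or whether replicate libraries came from separate cultures. Every p-value below thus sets a difference against library-to-library spread alone, and that spread may be technical.

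Hexokinases phosphorylate glucose as it enters the cell, the step that traps it there and commits it to glycolysis, the pentose phosphate pathway, glycogen or the hexosamine pathway. HK1 is the broadly expressed housekeeping enzyme and HK2 the inducible enzyme that many tumours express strongly, and both dock on the outer mitochondrial membrane through voltage-dependent anion channels. HK3 is best known in myeloid cells. HKDC1 (hexokinase domain containing 1) is the most recently described family member, lies directly beside HK1 in the genome, and is expressed mainly in epithelial tissues, where its activity on glucose is reported to be low. PRDM1, also called BLIMP1, is a zinc finger protein best known as a transcriptional repressor in plasma cells and other lineages.

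Each library held 19058967 to 55961821 counts assigned to genes, and the common biological coefficient of variation was 2.18%. PRDM1 itself was at 0 to 6 counts in every library of the wild-type, knockout and GFP groups, at 11475 and 9681 counts with PRDM1α, and at 22395 and 28423 counts with PRDM1β. The libraries labelled as PRDM1 overexpression thus held the most PRDM1 reads, whereas a loss of PRDM1 in KO2 or KO5 was not detectable at this depth because wild type had only 4 counts in each library. Of 8 epithelial markers, KRT8 and KRT18 were abundant and CDX2 was present at 13.0 to 17.4 CPM (counts per 1000000 gene counts after TMM scaling). EPCAM was at 0 in every library, and KRT19, CDH1, VIL1 and CLDN4 had at most 6 counts. The myeloid markers, the cells in which HK3 is best known, were at 0 in all libraries for 4 of 6 genes, and their summed level did not exceed 0.211 CPM; that of 4 other leukocyte markers did not exceed 0.0389 CPM, with 2 at 0 throughout. Summed epithelial markers ran from 815 to 823 CPM with PRDM1α, 927 to 928 with PRDM1β, 893 to 924 with GFP, 971 to 987 in wild type, 1020 to 1050 in KO2 and 1130 to 1200 in KO5, nearly all of it KRT8 and KRT18. Summed fibroblast markers ran from 8.55 to 13.0 CPM over all libraries, with DCN at 0. The part of the epithelial and fibroblast markers in the results below was not tested.

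The window before the HKDC1 start is printed first because HKDC1 carries the widest difference of the family, and that before the first listed HK2 start because HK2 moved the other way. Both are the 250 bases upstream of a RefSeq transcription start on GRCh38.p14, plus strand, at chr10:69220082-69220331 for HKDC1 and at chr2:74833877-74834126 for HK2, written 5′ to 3′. They were searched on both strands for GAAAG, the core of PRDM1 and interferon regulatory factor sites, for that core in tandem with 1 free base between (GAAAGNGAAAG), for the E-box CACGTG bound by MYC and its relatives, and for ACGTG, the core of a hypoxia response element, which CACGTG also contains. Capitals mark ACGTG, which reads CACGT on this strand, and the HKDC1 window has none.
HKDC1: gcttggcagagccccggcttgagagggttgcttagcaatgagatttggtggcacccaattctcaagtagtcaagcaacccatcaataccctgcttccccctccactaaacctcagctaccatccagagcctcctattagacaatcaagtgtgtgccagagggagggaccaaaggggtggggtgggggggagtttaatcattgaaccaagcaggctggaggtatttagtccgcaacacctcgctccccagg
HK2: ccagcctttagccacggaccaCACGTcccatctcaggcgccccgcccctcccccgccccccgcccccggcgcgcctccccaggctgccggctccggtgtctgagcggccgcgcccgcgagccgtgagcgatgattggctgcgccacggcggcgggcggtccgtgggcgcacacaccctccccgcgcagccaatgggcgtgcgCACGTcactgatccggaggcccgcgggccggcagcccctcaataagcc
The HKDC1 window was 54.4% G and C and held no match to any of the 4 motifs. The HK2 window was 76.8% G and C and held 2 ACGTG cores and none of the others. The window before the second listed HK2 start, at chr2:74834920-74835169, held 2 CACGTG E-boxes and 4 ACGTG cores, those within the E-boxes included. Of 7 windows at listed HK1 starts, 4 held GAAAG. Those beginning at chr10:69269750 and chr10:69269755 overlap and hold the same match. The single HK3 window held none of the motifs. Over the 35116 RefSeq promoter windows of the same length, 48.9% held GAAAG, 0.382% the tandem core, 6.34% CACGTG and 18.5% ACGTG. An absent match says only that these letters are not in this window, and a match is not a bound site.

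HKDC1 was near the limit of detection in cells without added PRDM1 and had 175 to 281 counts per library in cells with either isoform. The wild-type libraries held 10 and 17 counts (0.272 and 0.300 CPM) and the GFP libraries 7 and 6 counts (0.273 and 0.217 CPM). The KO2 libraries held 5 and 6 counts (0.115 and 0.172 CPM) and the KO5 libraries 5 and 2 counts (0.169 and 0.0704 CPM). With PRDM1α it had 236 and 175 counts, or 10.0 and 8.63 CPM, and with PRDM1β 195 and 281 counts, or 10.2 and 11.6 CPM. The 4 overexpression libraries stood above the other 8, which is the rise by which HKDC1 was chosen. In bulk RNA, fewer expressing cells and less RNA per cell cannot be told apart.

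The ratio of HKDC1 counts between PRDM1α and GFP, allowing for library size, was 38.5, with an exact 95% binomial interval of 22.2 to 72.8, and between PRDM1β and GFP it was 45.1 (26.1 to 85.3). These intervals cover counting error only. The fitted log2 fold changes were 5.24 ± 0.41 (SE) and 5.47 ± 0.41. Among all genes tested, 0.187% and 0.179% had an absolute log2 change at least as large in the 2 comparisons, figures that describe a gene picked for this change. PRDM1β gave 10.9 ± 0.969 CPM (SD, n = 2) and PRDM1α 9.32 ± 0.977 CPM. The ratio of PRDM1α to PRDM1β was 0.853 (0.746 to 0.976, counting error only), and the fitted log2 difference was -0.23 ± 0.12 (SE). Without single libraries that difference ran from -0.344 to -0.125. PRDM1 transcripts themselves stood at 482 ± 6.61 CPM with PRDM1α and 1170 ± 0.918 CPM with PRDM1β.

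**Figure D1:**
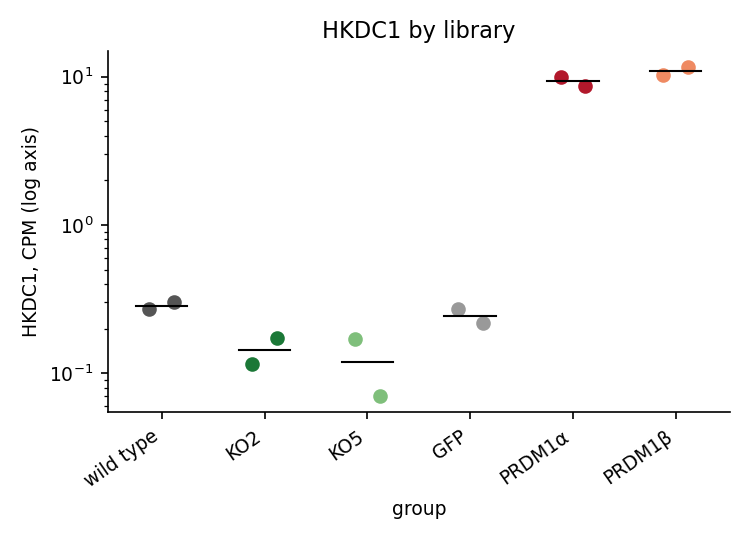
HKDC1 level in each of the 12 libraries, in CPM on a log axis, by group, with 1 point per library and a line at the group mean. The PRDM1α and PRDM1β libraries lie between 8.63 and 11.6 CPM, and all others at or below 0.300 CPM.

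In the knockouts HKDC1 had a lower mean than in wild type, at 0.143 ± 0.0399 CPM in KO2 and 0.119 ± 0.0694 CPM in KO5 against 0.286 ± 0.0198 CPM. These values carry no test, because HKDC1 had 2 to 17 counts per library here and entered the fit only through the overexpression libraries. The count ratio to wild type was 0.486 (0.217 to 1.01) in KO2 and 0.417 (0.153 to 0.982) in KO5, with exact 95% intervals for counting error. The intervals leave out library-to-library spread, so neither is a call of a difference. The KO5 to KO2 ratio was 0.859 (0.282 to 2.43). The fitted log2 fold change was -1.02 ± 0.52 in KO2 and -1.23 ± 0.62 in KO5. Single libraries weighed on the latter, which was -1.98 without KO5 replicate 1 and -0.763 without KO5 replicate 2.

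The authors' deposited table of PRDM1α overexpression against knockout lists HKDC1 at a log2 fold change of 3.48 ± 0.20 (SE). For PRDM1β the authors' deposited table lists 3.78 ± 0.20. Both are smaller than the group means here would give, which were 9.32 CPM with PRDM1α and 10.9 CPM with PRDM1β. The knockout means were 0.143 CPM in KO2 and 0.119 CPM in KO5. HK3, at a base mean of 0.164 for PRDM1α, is listed at 0 ± 0.04. The sources used here do not say whether those fold changes were shrunk, so they are not to be read as plain ratios of the levels. HK2 is at -0.42 ± 0.05 for PRDM1α (adjusted p = 2.01e-14) and -0.43 ± 0.05 for PRDM1β (adjusted p = 2.69e-14) in the authors' deposited tables. HK1 is at 0.19 ± 0.09 (adjusted p = 0.151) and 0.21 ± 0.09 (adjusted p = 0.0976) in the authors' deposited tables, and did not pass at an adjusted p of 0.05. These compare overexpression with knockout, a contrast not fitted here.

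A RefSeq long noncoding RNA, LOC101928994, lies antisense over the 5′ end of HKDC1. It had 7 and 6 counts with PRDM1α, 5 and 12 with PRDM1β, 1 count in a single KO5 library, and 0 in the other libraries. This gene was picked after its values were seen, so its counts are given as a description with no test. The library kit marks strand, but the sources used here do not say whether counting used it, so reads from this RNA and from HKDC1 cannot be told apart.

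HK1, the housekeeping enzyme, was among the well-read genes of every library. It stood at 182 and 182 CPM with GFP, 206 and 216 CPM with PRDM1α, and 214 and 211 CPM with PRDM1β. Both isoform groups lay above GFP. HK1 rose by a log2 fold change of 0.21 ± 0.04 with PRDM1α (1.16-fold, adjusted p = 7.24e-07) and by 0.22 ± 0.04 with PRDM1β (1.17-fold, adjusted p = 1.94e-07).

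HK2, the inducible enzyme, moved the other way. It stood at 183 and 170 CPM with GFP, 154 and 156 CPM with PRDM1α, and 157 and 152 CPM with PRDM1β. HK2 fell by 0.19 ± 0.04 on the log2 scale with PRDM1α (0.878-fold, adjusted p = 5.51e-05) and by 0.20 ± 0.04 with PRDM1β (0.873-fold, adjusted p = 2.29e-05).

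These calls are to be read against a wide response. HK1 and HK2 both passed the test in the PRDM1α and PRDM1β comparisons, where 37.5% and 40.9% of all tested genes passed. Changes as large as that of HK1 were seen in 32.8% and 33.8% of tested genes, and as large as that of HK2 in 37.3% and 38.7%. The isoforms were not separated by either gene: 0 of the 2 passed between PRDM1α and PRDM1β, where 6.24% of all genes did, and 0 did at an unadjusted threshold of 0.05 in edgeR or with DESeq2's Wald test. The PRDM1α minus PRDM1β difference was -0.01 for HK1, with a 95% interval of -0.08 to 0.06, and 0.01 for HK2, with an interval of -0.07 to 0.09 on the log2 scale.

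**Figure D2:**
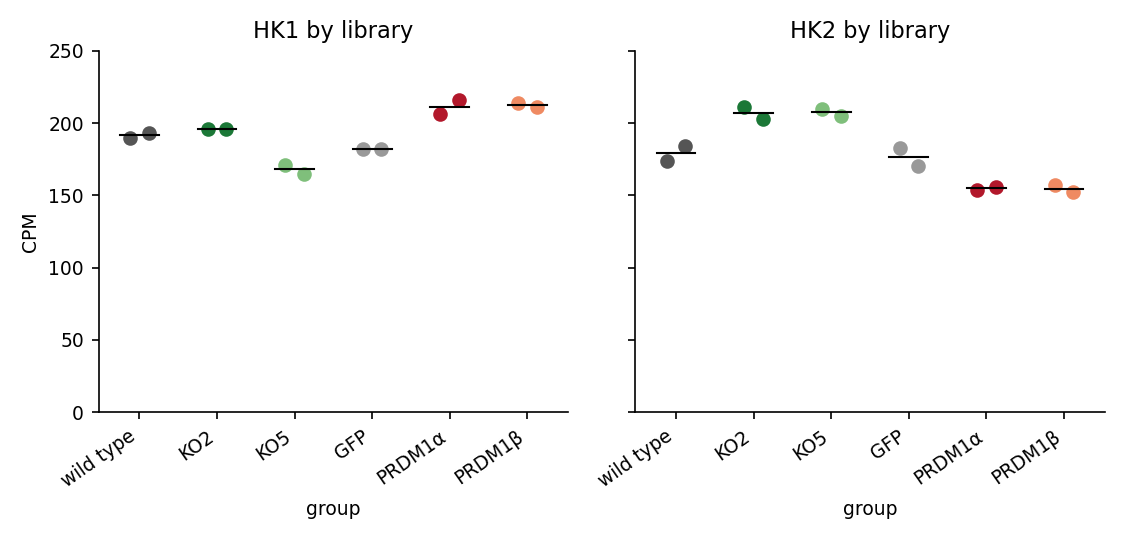
HK1 and HK2 levels in each of the 12 libraries, in CPM on a linear axis, by group, with 1 point per library and a line at the group mean. HK1 is highest with PRDM1α and PRDM1β and lowest in KO5, while HK2 is highest in KO2 and KO5, at 203 to 211 CPM, and lowest with PRDM1α and PRDM1β, at 152 to 157 CPM.

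In the knockouts HK2 was raised in both derivatives, the opposite direction to overexpression. The wild-type libraries stood at 174 and 184 CPM, those of KO2 at 211 and 203 CPM and those of KO5 at 210 and 205 CPM. The log2 fold change was 0.20 ± 0.03 in KO2 (adjusted p = 3.94e-06) and 0.21 ± 0.03 in KO5 (adjusted p = 1.31e-06), and KO5 and KO2 differed by 0.00, with an interval of -0.06 to 0.07 (adjusted p = 0.916). Of all tested genes, 23.4% in KO2 and 39.2% in KO5 changed at least as much as HK2. KO2 and KO5 share the wild-type libraries as control, as the isoforms share the GFP libraries.

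HK1 differed between the knockouts. The KO5 libraries stood at 171 and 165 CPM, those of KO2 at 196 and 196 CPM and those of wild type at 190 and 193 CPM. HK1 fell by 0.19 ± 0.03 on the log2 scale in KO5 (0.876-fold, adjusted p = 1.63e-06), whereas KO2 differed from wild type by 0.04 ± 0.03 (adjusted p = 0.402). Tested directly, HK1 was lower in KO5 than in KO2 by -0.23 ± 0.04 (adjusted p = 4.16e-08). Such a size was common: 42.7% of tested genes changed at least as much as HK1 in KO5 against wild type, and 40.8% between KO5 and KO2. Of HK1 and HK2, 1 passed in KO2, where 30.0% of all genes passed, 2 passed in KO5, where 51.2% did, and 1 passed between KO5 and KO2, where 54.9% did.

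Across all genes the KO5 against wild type change was correlated with the G and C content of transcripts, with a Spearman coefficient of -0.519, and that of KO5 against KO2 with a coefficient of -0.418. With this trend removed, HK1 in KO5 against wild type stood at -0.15 (adjusted p = 5.74e-05) and against KO2 at -0.18, on the same side of the threshold. The GFP control differed little from wild type for the family: HK1 was at -0.08 ± 0.03 (adjusted p = 0.0849) and HK2 at -0.03 ± 0.04 (adjusted p = 0.647), 0 of 2 passing where 19.0% of all genes did. That share rests on 2444 genes, which became 628 without wild type replicate 2, 1076 without GFP replicate 2 and 140 with the G and C trend removed. At an unadjusted threshold of 0.05 in edgeR 1 of 2, HK1, would pass, and with DESeq2's Wald test 0 of 2 passed after adjustment. HKDC1 gave a GFP to wild type count ratio of 0.844 (0.4 to 1.69).

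**Figure D3:**
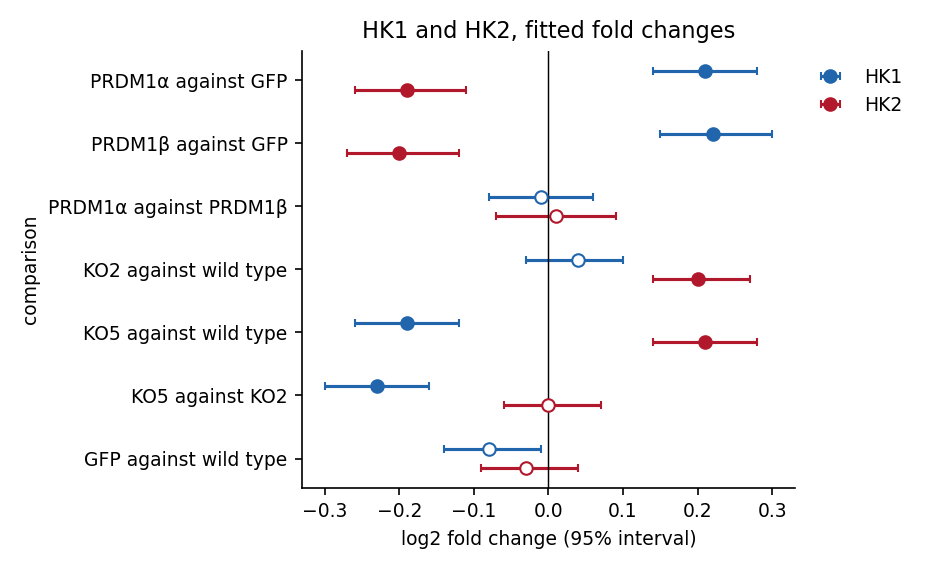
Fitted log2 fold changes of HK1 and HK2 in the 7 comparisons, with bars for the 95% interval (1.96 SE) and filled points where the adjusted p was under 0.05. HK1 lies above 0 in both overexpression comparisons and HK2 below, and HK2 lies above 0 in both knockout comparisons while HK1 does so only in KO2, at 0.04.

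The balance of HK1 and HK2 can be read without scaling, as the share of HK2 among reads of the 2 genes in the same library. The share was 47.9% and 48.9% for wild type, 51.7% and 50.9% for KO2, and 55.1% and 55.5% for KO5. It was 50.3% and 48.2% with GFP, 42.8% and 42.0% with PRDM1α, and 42.3% and 41.8% with PRDM1β. The overexpression libraries held the lowest shares, the KO5 libraries the highest, and GFP and wild type overlapped. Exact 95% intervals for counting error spanned 40.8 to 43.8% over the 4 overexpression libraries and 47.3 to 51.3% over the GFP libraries.

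**Figure D4:**
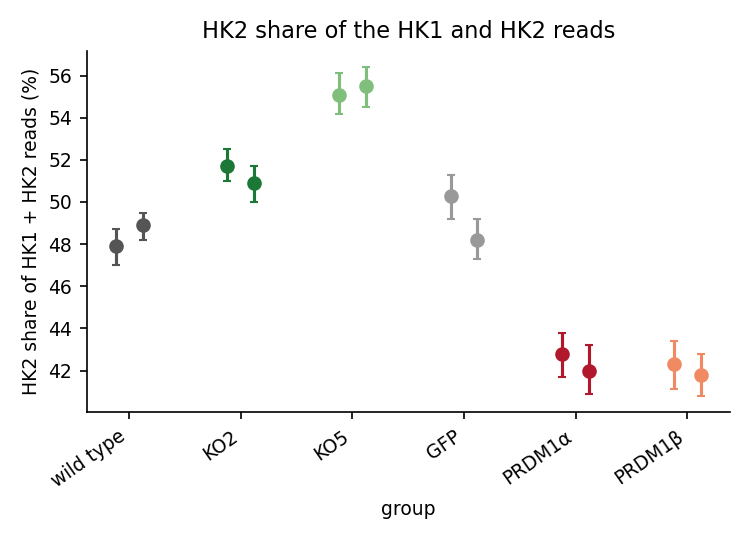
HK2 reads as a percentage of HK1 and HK2 reads together in each of the 12 libraries, by group, with bars for the exact 95% binomial interval of counting error. Values run from 41.8% with PRDM1β to 55.5% in KO5, with wild type and GFP between 47.9 and 50.3%.

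Levels of the members were set beside each other per kilobase of the longest coding GENCODE v29 transcript, which is 3998 bases for HK1, 5772 for HK2 and 3689 for HKDC1. On that scale HK1 led in every group, from 42.0 CPM per kilobase in KO5 to 53.1 with PRDM1β, and HK2 followed, from 26.7 with PRDM1β to 35.9 in KO5. HKDC1 was at 0.0775 in wild type, 0.0389 in KO2, 0.0324 in KO5, 0.0664 with GFP, 2.53 with PRDM1α and 2.96 with PRDM1β. The order of HK1 and HK2 depends on the length used: their coding sequences are nearly equal, at 2763 and 2751 bases, and HK2 had more reads than HK1 in KO2 and KO5, with 207 against 196 CPM and 207 against 168 CPM.

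HKDC1 made up 3.08 ± 0.389% of all hexokinase signal per kilobase with PRDM1α and 3.57 ± 0.354% with PRDM1β, against 0.087 ± 0.0122% with GFP. It remained the least abundant of the 3 expressed members in every library. The sum over the family was 76.1 ± 1.56 CPM per kilobase with GFP, 82.0 ± 1.77 with PRDM1α, 82.8 ± 0.849 with PRDM1β, 79.0 ± 1.77 in wild type, 84.9 ± 0.919 in KO2 and 77.9 ± 1.63 in KO5. These sums were not tested.

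HK3, the myeloid member, had 1 count in a single KO5 library and 0 in the other 11, and was not tested. A count of 0 allows up to 3 counts, which is 0.0529 to 0.157 CPM across the libraries.

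The members are related in sequence, so reads could in principle be shared. Coding sequences of HKDC1 were 71.2% identical to HK1 and 71.4% to HK2, and HK1 and HK2 were 72.5% identical to each other. No run of 50 bases was shared between any pair of the 4 genes. HK2 shares 491 of its 5723 runs of 50 bases with the pseudogene HK2P1, which is not among the genes of the count files, so part of the HK2 reads may be ambiguous between the 2 loci.

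Over the 12 libraries, log2 HKDC1 correlated with HK1 at r = 0.82 and with HK2 at r = -0.89, and HK1 with HK2 at r = -0.72. These coefficients describe 6 groups that differ in the same PRDM1 treatment and carry no test. The 5 genes whose pattern was most like that of HKDC1, among 10413 compared, were SERPINB1, TGM2, PSMD2, PRDM1 and CCDC71L, at r between 0.992 and 0.993. TGM2, a transglutaminase that crosslinks proteins, went from 7.53 CPM with GFP to 89.0 and 96.4 CPM with PRDM1α and PRDM1β, and SERPINB1, an inhibitor of neutrophil proteases, from 27.2 to 43.5 and 45.1 CPM. HK1 was most like GNAI2 (r = 0.992), COL6A1 and FAM50A, and HK2 most like CAMK1D (r = 0.977), UCK2 and IGF2BP3. IGF2BP3, an RNA-binding protein of fetal tissues and tumours, had 153 CPM in wild type, 324 and 383 CPM in KO2 and KO5, and 82.5 and 74.6 CPM with PRDM1α and PRDM1β.

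Glucose transporters stand just upstream of the hexokinases. Of 8 tested, 4 rose and 1 fell with PRDM1α and 5 rose and 1 fell with PRDM1β, with median log2 changes of 0.302 and 0.379. Over all tested genes, 37.5% and 40.9% passed in these comparisons and the median lay within 0.012 of 0. SLC2A3 (GLUT3), a high-affinity transporter, had the widest difference, at 1390 and 1350 CPM with PRDM1α and PRDM1β against 537 CPM with GFP, a log2 change of 1.38 ± 0.03 and 1.33 ± 0.03. SLC2A1 (GLUT1), the basal transporter, fell by 0.23 and 0.16.

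The knockouts split on the same transporter. SLC2A3 was at 530 CPM in wild type, 402 CPM in KO2 and 1330 CPM in KO5, so that KO5 exceeded KO2 by 1.72 ± 0.03 on the log2 scale (adjusted p = 6.24e-41). Of the 8 transporters, 2 rose and 3 fell in KO2, and 3 rose and 3 fell in KO5, where 30.0% and 51.2% of all genes passed. HKDC1 was low in both derivatives.

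Enzymes of glycolysis below hexokinase mostly went down with overexpression where they moved. Of 17 tested, 1 rose and 8 fell with each isoform, with median log2 changes of -0.116 and -0.11, where 37.5% and 40.9% of all genes passed. PKM, the pyruvate kinase, went from 839 CPM with GFP to 642 and 608 CPM, a log2 change of -0.39 ± 0.03 and -0.46 ± 0.03, and GAPDH from 3770 to 3140 and 3130 CPM. PFKP, the platelet-type phosphofructokinase, was the single riser, from 143 to 224 CPM with PRDM1α (0.65 ± 0.04) and to 190 CPM with PRDM1β (0.41 ± 0.04), and it was higher with PRDM1α than with PRDM1β by 0.24 ± 0.04 (adjusted p = 6.37e-07). In KO2, 7 rose and 4 fell, and in KO5, 4 rose and 9 fell, where 30.0% and 51.2% of all genes passed. PKM rose in KO2 by 0.26 ± 0.03. In the GFP group against wild type, 0 rose and 8 fell, where 19.0% of all genes passed. Across all genes that comparison had a Spearman coefficient of -0.666 with G and C content, and 140 genes in place of 2444 were called with the trend removed.

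The next 2 groups are small, and their counts stand beside 37.5% of all genes passing with PRDM1α, 40.9% with PRDM1β, 30.0% in KO2 and 51.2% in KO5. The enzymes that make or remove fructose 2,6-bisphosphate, the activator of phosphofructokinase, gave 2 that rose and 0 that fell of 4 with each isoform, PFKFB2 and TIGAR by 0.11 to 0.18. In KO5, TIGAR rose by 0.53 ± 0.04 and PFKFB4 fell by 0.55 ± 0.08, with 2 rising and 2 falling, and in KO2 the median log2 change of the 4 was -0.014. Of the 3 mitochondrial channels on which HK1 and HK2 dock, VDAC3 fell with both isoforms, by 0.15 and 0.14, while VDAC1 and VDAC2 did not pass. VDAC1 and VDAC2 rose in KO2, by 0.20 and 0.19, and VDAC1 fell in KO5, by 0.07.

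**Figure D5:**
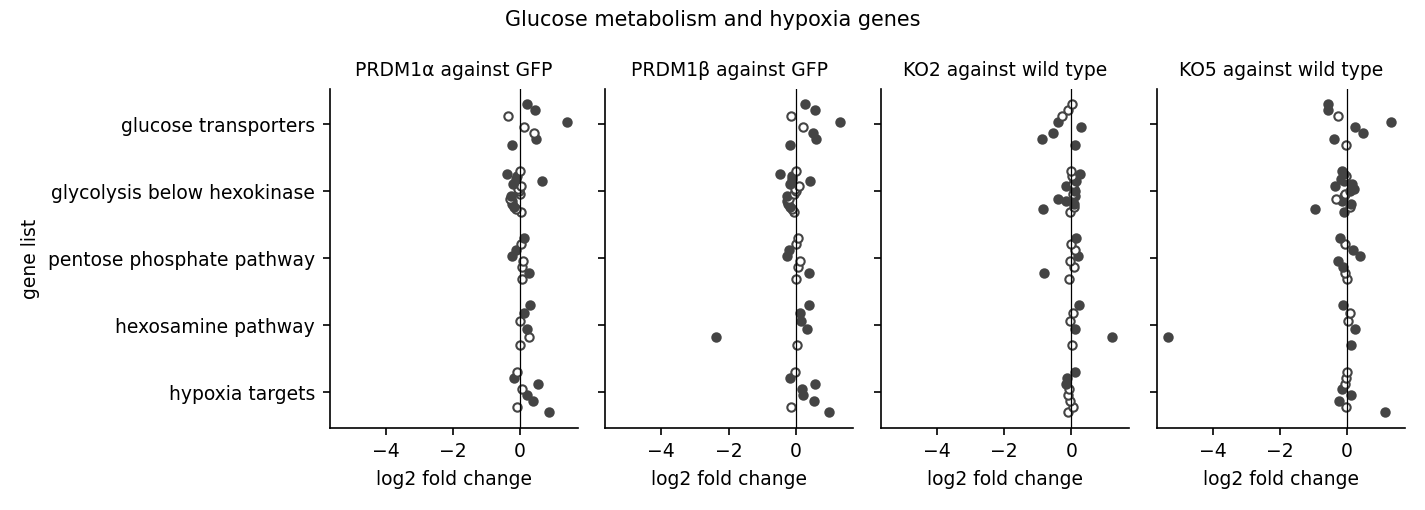
Fitted log2 fold changes of the tested genes of 4 glucose metabolism lists and the hypoxia targets in the overexpression and knockout comparisons, 1 point per gene, filled where the adjusted p was under 0.05. The far left points of the hexosamine pathway are GFPT2, at -2.36 with PRDM1β and -5.33 in KO5. SLC2A3 stands highest among the transporters with PRDM1α, PRDM1β and in KO5, and PFKP is the single glycolytic enzyme that rose with each isoform.

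Other branches also draw on phosphorylated glucose, and their counts stand beside 37.5% of all genes passing with PRDM1α and 40.9% with PRDM1β. In the pentose phosphate pathway, 2 rose and 2 fell of 8 with PRDM1α and 1 rose and 2 fell with PRDM1β, where RPE, an epimerase, fell by 0.24 and 0.25. In the hexosamine pathway, which makes the sugar donor of protein glycosylation, 3 of 6 rose with PRDM1α, and 4 rose and 1 fell with PRDM1β. UAP1 rose by 0.30 and 0.39 and GNPNAT1 by 0.19 and 0.33. GFPT2 was the faller with PRDM1β, at -2.36 ± 0.30, with 11 and 17 counts against 78 and 100 with GFP. It did not pass with PRDM1α, at 0.27 ± 0.16, and PRDM1α exceeded PRDM1β by 2.63 ± 0.30. Of 6 other tested genes tied to sugar phosphorylation or dephosphorylation, 1 rose and 1 fell with PRDM1α and 2 fell with PRDM1β. SLC37A4, a transporter and not an enzyme, fell with both, at -0.21 and -0.36.

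HK2 is also a known target of the hypoxia response, so its other targets were set beside it. Of 8 tested, 4 rose and 1 fell with PRDM1α and 5 rose and 1 fell with PRDM1β, where 37.5% and 40.9% of all genes passed. HK2 fell in both. ADM, adrenomedullin, rose by 0.85 and 0.98 with the isoforms and by 1.13 in KO5, and NDRG1 by 0.52 and 0.58 with the isoforms. As a list, the 8 targets did not go 1 way in KO5: 2 rose and 2 fell, with a median of -0.026, where 51.2% of all genes passed. VEGFA did not pass with either isoform, at -0.09 and -0.03.

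Around HKDC1 and HK1 on chromosome 10, 4 of 6 tested neighbours rose and 0 fell with each isoform, where 37.5% and 40.9% of all genes passed. SUPV3L1, the helicase gene beside HKDC1, was at 0.14 ± 0.04 with PRDM1α and 0.31 ± 0.04 with PRDM1β, and VPS26A at 0.24 and 0.32. In KO5, 5 rose and 1 fell, where 51.2% of all genes passed, and in KO2, 2 rose, where 30.0% did. Among 4 tested genes of a list chosen near HK2 and HK3, 2 rose and 1 fell with PRDM1α and 2 rose with PRDM1β. That list left out other tested genes within 3 places of HK2 or HK3. Of these, DOK1 fell and EVA1A rose with each isoform, while TSPAN17, ZNF346 and FGFR4 did not pass with either. HKDC1 had a log2 change above 5 with each isoform, and no tested neighbour of it on chromosome 10 exceeded 0.32 with either isoform.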

How the data were processed

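RNA-seq of 12 RKO libraries was analysed from the per-library gene counts that the authors deposited as whole numbers. The submitters' processing notes name TopHat, Bowtie2, Cufflinks and build hg19, and the read counter, its strand setting and its annotation are not given in the sources used here. The 2 entries that name no gene (9.13 to 10.8% of reads in no feature, 1.66 to 1.75% ambiguous) were kept out of library sizes and tests. The authors' deposited comparison tables give base means on another normalized scale, log2 fold changes and adjusted p-values; per the file headers their layout is that of DESeq2. A further such table repeats the PRDM1β one and was not used here.

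Counts were fitted in edgeR 4.0.16 (R 4.3.3, limma 3.58.1) with its low-count filter (minimum 10), TMM scaling and 1 mean per group over all 12 libraries. The quasi-likelihood test with Benjamini-Hochberg adjustment over 12858 genes called a gene at an adjusted p under 0.05 in 7 comparisons, and the script was tested on simulated data. Standard errors are Wald errors of the fit. CPM are counts per 1000000 gene counts times the TMM factor, and correlations use log2 CPM with a prior count of 2. Depth was 19058967 to 55961821 gene counts per library. A count of 0 was given a limit of 3 counts.

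The members and all 16 gene lists were chosen with earlier results of these data known. Genes of each list were named where they passed, did not overlap between groups and reached 5 CPM, up to 3 per comparison by size of change, and the genes most like each member by Pearson r. SLC2A1 and LOC101928994 are named outside that rule, with their values seen, and some genes are also given in comparisons where the rule did not name them. Lengths, G and C content and shared sequence came from GENCODE v29 on GRCh38, matched by symbol for 90.2% of genes, and promoters from RefSeq on GRCh38.p14. Neither was used for coordinates of the counts.

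Alternatives were DESeq2 1.42.0 size factors and Wald test, PRDM1 left out of the scaling, no low-count filter, the compared groups alone, a replicate block, G and C trend removal, no TMM, and each library left out. Same-numbered libraries did not deviate together (15 pairs, r from -0.0655 to 0.0564, 0 above 0.1), so the numbers were not taken to pair them.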

Additional observations from a re-analysis of the deposited data

Results flagged for a closer look

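HK1, the housekeeping hexokinase, differed between the knockout derivatives in its change from wild type: it was lower in KO5 than in KO2 by -0.23 on the log2 scale in a direct test (edgeR quasi-likelihood, adjusted p = 4.16e-08), with 171 and 165 CPM in KO5, 196 and 196 CPM in KO2, and 190 and 193 CPM in wild type. The KO5 against KO2 change of all genes was correlated with G and C content (Spearman coefficient -0.418), and with that trend removed HK1 stood at -0.18. Between KO5 and KO2, 54.9% of all tested genes passed, and 40.8% changed at least as much as HK1. Whether the difference belongs to the PRDM1 knockout or to the derivative was not tested.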

How the results depend on the processing

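Every HK1 and HK2 difference that passed the test kept its direction and passed under all alternatives run. The smallest was HK2 with PRDM1α without GFP replicate 1, at -0.131 (adjusted p = 0.00969; range over left-out libraries -0.243 to -0.131). Signs turned for HK1 and HK2 only in differences near 0 that did not pass, and for HKDC1 in KO5 against KO2 (-0.21 ± 0.70), which rests on 2 to 6 counts per library. Leaving out single libraries gave -0.0459 to 0.0213 for HK1 and -0.0132 to 0.0323 for HK2 between PRDM1α and PRDM1β, -0.954 to 0.257 for HKDC1 and -0.0205 to 0.0323 for HK2 between KO5 and KO2, and -0.0823 to 0.0295 for HK2 between GFP and wild type. HK2 was at -0.00226 between PRDM1α and PRDM1β with the G and C trend removed and at -0.000193 between KO5 and KO2 with no filter. Counts over all genes moved more. The 802 genes between PRDM1α and PRDM1β became 440 with the DESeq2 Wald test and 387 to 497 without each of the 4 libraries in turn. The 3857 between KO2 and wild type became 2433 with that test and 2557 to 3157 (2557 without wild type replicate 2). The 2444 between GFP and wild type became 1238 with that test, 140 with the G and C trend removed, and 628 to 2120 (628 without wild type replicate 2, 1076 without GFP replicate 2). The cause was not tested. The replicate block changed no call of the members, with HK1 at 0.212 and HK2 at -0.187 with PRDM1α, and 4761 genes called there. With the compared groups alone, HKDC1 did not pass the low-count filter in 3 comparisons and has no value there. Without single libraries HKDC1 ran from -1.3 to -0.738 in KO2 and from -1.98 to -0.763 in KO5 against wild type. The labels do not show separate cultures.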

Other observations

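Genes of glycogen and of pyruvate and lactate handling lie further from the hexokinase step. Of 9 glycogen genes tested, 3 rose and 2 fell with each isoform, 3 rose and 2 fell in KO2, and 5 rose and 1 fell in KO5. Over all tested genes, 37.5% passed with PRDM1α, 40.9% with PRDM1β, 30.0% in KO2 and 51.2% in KO5. Of 9 genes of pyruvate and lactate handling, 1 rose and 2 fell with PRDM1α, 3 rose with PRDM1β, 3 rose in KO2, and 2 rose and 2 fell in KO5. SLC16A3, the lactate exporter of glycolytic cells, was at 0.28 with PRDM1α, 0.46 with PRDM1β, 0.47 in KO2 and -0.26 in KO5 on the log2 scale.

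GFPT2, an enzyme that feeds the hexosamine pathway, had 6.81 CPM in KO2 against 2.95 CPM in wild type, a log2 change of 1.22, and 3 and 1 counts in the KO5 libraries.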
